A study of Arabidopsis thaliana with 72 samples.

Results

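The WRKY family of transcription factors is represented here by 7 Arabidopsis genes with known roles in defense and leaf senescence, WRKY18 (AT4G31800), WRKY40 (AT1G80840), WRKY60 (AT2G25000), WRKY33 (AT2G38470), WRKY53 (AT4G23810), WRKY54 (AT2G40750) and WRKY70 (AT3G56400). They were taken by name and locus from the 37336 genes of the count table, and all 7 passed the minimum of 50 counts in at least 1 library. RNA of rosette leaves was sequenced from plants 25 days after sowing, in 24 groups of 3 libraries, 72 libraries in all. The parents were the ecotypes Ws, Ler and Col. Reciprocal F1 hybrids were WsxLer F1 and LerxWs F1 in the Ws/Ler system, and ColxLer F1 and LerxCol F1 in the Col/Ler system. From each cross the study bred F7 lines by recurrent selection on plant size and flowering time. Hybrid Mimics (WL_HM1 to WL_HM7 and CL_HM1 to CL_HM6) were selected for the large F1-like phenotype, and small lines (wl_sml1, wl_sml2, cl_sml1 and cl_sml2) for small plants. A library of a parent or hybrid pooled 3 plants, whereas a library of an F7 line held 1 plant, and the 3 libraries of a line came from siblings. Comparisons of lines therefore describe these lines and not other selections from the same cross. The study set CL_HM5 and CL_HM6 apart because of their plant size, and here they were left out of the Hybrid Mimics of that system unless named, with their own comparisons with the MPV, and kept in the 24 groups and the fit of all 72 libraries.

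WRKY proteins carry a conserved heptapeptide, WRKYGQK, beside a zinc finger, and bind the W-box, whose core is TTGAC. Many WRKY genes are themselves induced by pathogens, wounding or age, and some act on other WRKY genes. WRKY18, WRKY40 and WRKY60 are closely related and act together in basal defense and abscisic acid responses. WRKY33 is needed for defense against necrotrophic fungi and activates genes of camalexin synthesis. WRKY53 promotes leaf senescence. WRKY54 and WRKY70 act in salicylic acid (SA) signalling and delay senescence.

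The libraries held 17741358 to 28527725 counts (median 20432113). Counts of the 72 replicate pairs within groups differed by more than sampling noise (mean chi-square per gene 4.28 to 86.2), so no pair within a group appeared to be 1 library deposited again. All 8 rosette leaf markers had at least 6685 counts in every library. The root markers BGLU21 and PER57 were at 0 in 66 and 65 libraries, and PYK10 had 6 to 1102 counts. Of 6 floral markers, LFY was at 0 in 55 libraries and AP1 in 35, and the summed level of the 6 was 0.713 to 19.4 CPM (counts scaled to library size). WL_HM3 replicate 3 and CL_HM4 replicate 3 stood apart from their sibling libraries in several of the WRKY genes, and calls that depend on them are given with and without them. In leaf RNA, fewer cells of a type and less RNA per cell cannot be told apart. Separate libraries of a group were treated as replicates, so p-values measure the spread between libraries within a group. Each line was its own group in the fits. The spread between lines therefore does not enter the SE or p of comparisons that average over lines.

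The coding sequence of the heptapeptide is shown because it is the stretch by which the 7 genes are recognized as WRKY genes. Each line gives the 21 bases of the TAIR10.1 reference coding sequence, 5′ to 3′, and capitals mark the bases that differ among the genes. WRKY33 has 2 such stretches and the first is shown.
WRKY18: tggagGaaAtaCggAcaAaaG
WRKY40: tggagGaaAtaTggAcaGaaA
WRKY60: tggagGaaAtaCggGcaAaaG
WRKY33: tggagAaaGtaCggAcaAaaA
WRKY53: tggagAaaAtaTggTcaAaaA
WRKY54: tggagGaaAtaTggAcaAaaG
WRKY70: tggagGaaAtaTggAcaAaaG
The 7 genes held 6 distinct sequences, and WRKY54 and WRKY70 were identical. Of the 21 bases, 6 differed, all of them at the last base of a codon. The stretch ended 114 codons before the stop in WRKY60 and 324 in WRKY33, whose other copy lies further on.

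Sequence upstream of the genes is shown for WRKY33, WRKY53, WRKY18 and WRKY70, the first pair with calls against the MPV in 6 Ws/Ler Hybrid Mimics and the other pair as members of the WRKY40-related and the SA-related genes. Each window holds the 250 bases before the annotated gene start in TAIR10.1, read on the strand of the gene. Capitals mark the W-box core TTGAC or its complement GTCAA. The windows are chr2:16107985-16108234 (plus strand), chr4:12393983-12394232 (minus strand), chr4:15382527-15382776 (plus strand) and chr3:20910624-20910873 (minus strand).
WRKY33: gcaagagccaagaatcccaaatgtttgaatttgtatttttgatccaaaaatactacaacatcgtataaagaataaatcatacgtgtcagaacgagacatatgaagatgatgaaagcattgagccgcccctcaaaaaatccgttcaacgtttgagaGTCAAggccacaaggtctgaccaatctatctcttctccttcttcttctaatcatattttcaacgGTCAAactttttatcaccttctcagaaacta
WRKY53: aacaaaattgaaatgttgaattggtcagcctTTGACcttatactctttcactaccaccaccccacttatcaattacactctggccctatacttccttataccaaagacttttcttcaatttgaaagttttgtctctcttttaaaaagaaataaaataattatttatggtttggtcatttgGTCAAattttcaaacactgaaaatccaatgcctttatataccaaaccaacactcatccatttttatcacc
WRKY18: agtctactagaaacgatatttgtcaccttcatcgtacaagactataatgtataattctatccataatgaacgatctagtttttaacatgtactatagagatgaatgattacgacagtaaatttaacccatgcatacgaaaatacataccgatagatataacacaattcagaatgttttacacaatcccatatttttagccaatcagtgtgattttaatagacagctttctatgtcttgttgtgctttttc
WRKY70: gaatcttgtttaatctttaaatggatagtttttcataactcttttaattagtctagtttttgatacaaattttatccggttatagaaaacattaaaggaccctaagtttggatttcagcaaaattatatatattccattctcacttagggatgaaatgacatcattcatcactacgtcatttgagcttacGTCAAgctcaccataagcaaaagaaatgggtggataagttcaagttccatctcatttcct
TTGAC, searched on both strands, occurred 2 times in the windows of WRKY33 and WRKY53, 1 time in those of WRKY40 and WRKY70, and not in those of WRKY18, WRKY60 and WRKY54. Among 27443 protein-coding genes, 44.9% of such windows held the core and 14.1% held it 2 or more times. TGACG, the core of TGA factor sites, was found on either strand 2 times before WRKY70 and 1 time before WRKY40, and in 18.6% of all windows. In WRKY70, 1 of its TGACG matches shared letters with the TTGAC match. These matches describe letters in the reference only.

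The genes lie on chromosomes 1 to 4 of TAIR10.1. WRKY40 spans chr1:30383561-30385499 with 4 exons, WRKY60 chr2:10629662-10631413 with 5, WRKY33 chr2:16108235-16110766 with 5 and WRKY54 chr2:17000419-17002528 with 3. WRKY70 spans chr3:20908711-20910623 with 3 exons, WRKY53 chr4:12392370-12393982 with 2 and WRKY18 chr4:15382777-15385100 with 5. An annotated gene on the opposite strand shares 341 bases with WRKY53 (AT4G23800), 51 with WRKY40 (AT1G80850), and 272 and 26 with WRKY33 (AT2G08965 and AT2G38480). Whether counting used strand is not given in the sources used here, so reads from these stretches cannot be told apart. AT2G08965 had at most 1 count in any library, AT1G80850 37 to 158 and AT2G38480 37 to 175. AT4G23800 had 50 to 1144 counts (median 219), of the same order as WRKY53. These are counts of the whole gene and do not measure the reads in the 341 shared bases. How far reads from that stretch enter or leave the values of WRKY53 was not tested.

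Levels are given as normalized counts, that is, counts scaled by TMM to a common library size of 20762346. They are compared between groups and not between genes, because they grow with transcript length. Over the 24 groups, the means of WRKY18, WRKY54 and WRKY70 were highest in cl_sml2, and those of WRKY40, WRKY60, WRKY33 and WRKY53 in cl_sml1. The lowest mean was found in WL_HM2 for WRKY18, WRKY40, WRKY33 and WRKY53, in WL_HM4 for WRKY60, and in CL_HM5 for WRKY54 and WRKY70. The order was graded, and of the 23 pairs of groups that neighbour each other in the order of each gene, the libraries overlapped in every pair except Col and WL_HM4 for WRKY53.

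**Figure D1:**
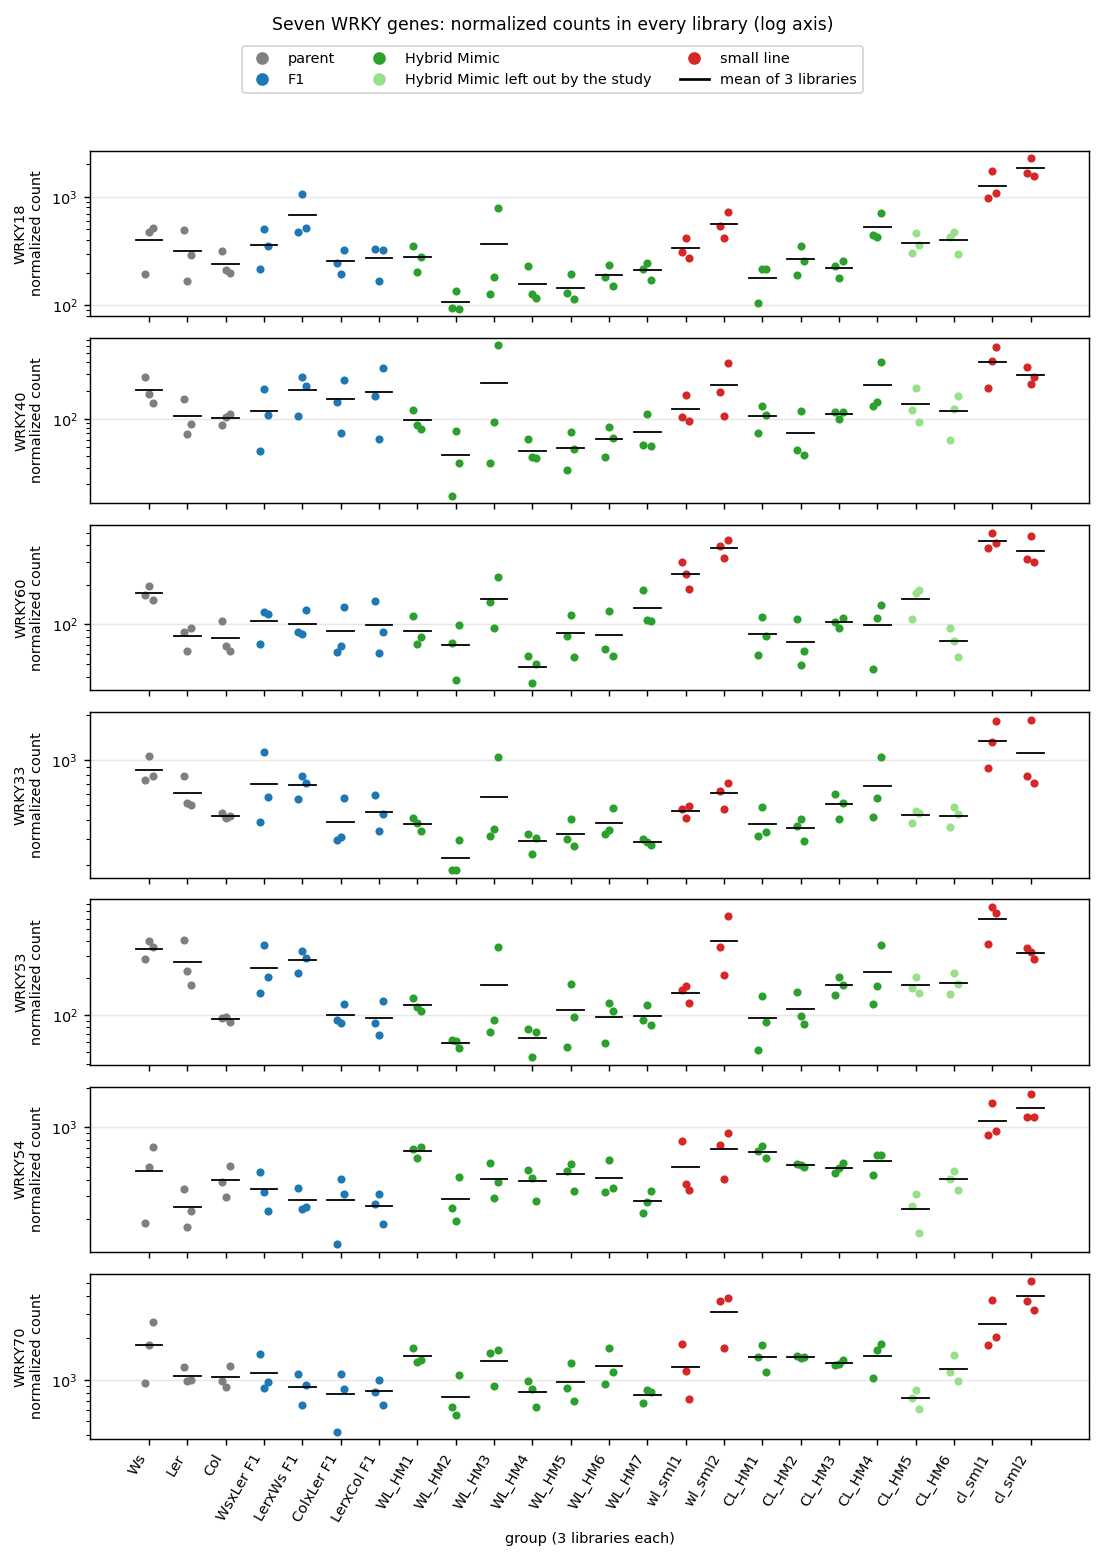
Normalized counts (log axis) of the 7 WRKY genes in every library, 3 points a group, with a bar at the group mean and colors for parents, F1 hybrids, Hybrid Mimics and small lines. The Col/Ler small lines cl_sml1 and cl_sml2 hold the highest point of every gene but WRKY40, and WL_HM3 replicate 3 lies far above its siblings for WRKY18, WRKY40, WRKY33 and WRKY53.

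Parents set the mid-parent value (MPV) with which hybrids and lines were compared. WRKY60 was 2.09-fold higher in Ws than in Ler, and WRKY53 was 2.86-fold lower in Col than in Ler, while the other genes did not pass the test in either comparison. The normalized counts of WRKY60 were 168, 198 and 153 in Ws and 87.6, 63.04 and 94.6 in Ler. The groups did not overlap, and the difference was 1.06 ± 0.24, adjusted p = 0.0145 (log2 fold change ± SE, edgeR). The call rested on few libraries: it was lost without Ler replicate 2 (log2 fold change 0.91, adjusted p = 0.0553) or Ws replicate 2 (0.95, adjusted p = 0.0507). Across the 7 genes, 0 passed without either of these, 4 without Ler replicate 1 and 3 without Ws replicate 1. The share of all genes called in these leave-outs is not given, so whether the changes are particular to the 7 cannot be told. Over all genes, 20.7% of 17043 differed between Ws and Ler, and 1 of the 7 WRKY genes, or 14.3%, did. WRKY53 had normalized counts of 95.1, 97.1 and 88.6 in Col against 408, 227 and 176 in Ler, again without overlap (-1.51 ± 0.29, adjusted p = 0.00756). Here 14.4% of all genes differed. WRKY54 and WRKY70 varied within Ws more than in the other parents, at 185, 503 and 708 for WRKY54 and 942, 1777 and 2596 for WRKY70.

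The F1 hybrids were compared with the MPV, built in silico by adding the scaled libraries of both parents with the same number. The numbers were not taken to pair libraries, so the range of the mid-parent values can be narrower than that of either parent. Both MPVs contain the 3 libraries of Ler, and every comparison with an MPV in a system shares its 3 MPV libraries. No WRKY gene of the 7 passed the test in the hybrids of either system by edgeR or DESeq2. At an unadjusted p of 0.05 there were 0 in Ws/Ler and 1 in Col/Ler, WRKY53. At that cutoff 1610 of 18146 and 1280 of 17919 of all genes passed. At the adjusted threshold, 0.281% of all genes were called in the Ws/Ler hybrids and 0.407% in the Col/Ler hybrids. Of the 7, WRKY53 had the lowest p in Col/Ler. Its normalized counts in the 6 hybrid libraries ran from 69.4 to 129 with a median of 88.96, against 132, 162 and 251 in the 3 mid-parent values. All hybrid libraries lay below all mid-parent values, with a log2 fold change of -0.90 ± 0.31, adjusted p = 0.353. They lay around the level of the parent Col, whose 3 libraries ran from 88.6 to 97.1. WRKY70, an SA-related factor, ran from 659 to 1544 with a median of 943 in the Ws/Ler hybrids against mid-parent values of 1093, 1376 and 1798. These overlapped, and the log2 fold change was -0.48 ± 0.29, adjusted p = 0.723. The reciprocal hybrids were pooled after comparing them. No gene of the 7 passed between WsxLer and LerxWs, where 0.0164% of all genes were called (3 of 18297), or between ColxLer and LerxCol, where 0% were called by edgeR (208 genes at an unadjusted p of 0.05, and 2 by DESeq2). WRKY18 was 1.93-fold lower in WsxLer than in LerxWs at an unadjusted p of 0.0269 and an adjusted p of 1 (edgeR). Its normalized counts were 217, 499.7 and 353 in WsxLer and 469.7, 1069 and 515 in LerxWs, which overlapped.

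In the Ws/Ler Hybrid Mimics, the senescence factor WRKY53 and the camalexin regulator WRKY33 were lower than the MPV in 6 of 7 lines. WRKY53 fell by 1.35 to 2.37 on the log2 scale in those lines, and WRKY33 fell by 0.92 to 1.73. The remaining line, WL_HM3, had lower values in 2 of 3 libraries. No Col/Ler Hybrid Mimic was called for either gene, and WRKY70 did not pass the test in any Hybrid Mimic line of either system. WRKY70 in WL_HM2 was near the threshold (-0.91, adjusted p = 0.053) and passed under 5 of 8 alternative settings, with adjusted p from 0.0381 to 0.0634.

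For WRKY33, the mid-parent values in Ws/Ler were 648, 764 and 794. Its counts were 185, 186 and 292 in WL_HM2, the lowest line, and 324, 342 and 482 in WL_HM6, the highest of those called. Neither line overlapped the mid-parent values. The log2 fold change was -1.73 ± 0.34, adjusted p = 0.000623 in WL_HM2 and -0.92 ± 0.33, adjusted p = 0.0415 in WL_HM6. It was -0.96 in WL_HM1, -1.33 in WL_HM4, -1.18 in WL_HM5 and -1.36 in WL_HM7. In WL_HM3 the counts were 312, 346 and 1052, and the log2 fold change was -0.33 ± 0.33, adjusted p = 0.573. Replicate 3 alone reached the level of the parents: without it the log2 fold change was -1.15 and the adjusted p 0.00938. Calls of WRKY33 held in each leave-out of 1 library in WL_HM2, WL_HM4 and WL_HM7. They were lost in 6 of 6 leave-outs for WL_HM1, 5 for WL_HM6 and 3 for WL_HM5, always below the MPV.

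For WRKY53, the mid-parent values in Ws/Ler were 267, 312 and 345. The counts were 62.7, 61.7 and 53.9 in WL_HM2, 77.1, 45.6 and 73.4 in WL_HM4 and 137, 117 and 109 in WL_HM1. All of these lay below the mid-parent values. The log2 fold change was -2.37 ± 0.48, adjusted p = 0.000702 in WL_HM2, -2.22 ± 0.47, adjusted p = 0.000856 in WL_HM4 and -1.35 ± 0.45, adjusted p = 0.03 in WL_HM1. WL_HM5, WL_HM6 and WL_HM7 were at -1.49, -1.64 and -1.64. WL_HM3 had counts of 73.6, 91.3 and 358, and its log2 fold change was -0.78 ± 0.44, adjusted p = 0.263. Without replicate 3 of that line it was -1.90 with an adjusted p of 0.00422. The calls held in each leave-out for WL_HM2, WL_HM4 and WL_HM6, and were lost in 5 leave-outs for WL_HM1, 4 for WL_HM5 and 2 for WL_HM7.

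The 3 closely related factors WRKY18, WRKY40 and WRKY60 had 2 calls against the MPV in these lines. WRKY18 was lower in WL_HM2, with counts of 94.01, 136 and 93.7 against mid-parent values of 322, 343 and 403 and no overlap (-1.72 ± 0.50, adjusted p = 0.0133). The call was lost without replicate 1 of WL_HM2 (adjusted p = 0.0534) or its replicate 3 (adjusted p = 0.0504). WRKY60 was lower in WL_HM4, with counts of 57.8, 35.9 and 49.7 against 124, 128 and 130.4 and no overlap (-1.39 ± 0.36, adjusted p = 0.00438). WRKY40 passed in none of the 7 lines, although 6 lay below the MPV, with log2 fold changes from -1.90 to 0.71. Its lowest counts were 15.2, 74.6 and 33.98 in WL_HM2 and its highest 34.1, 92.6 and 605 in WL_HM3, where the 3 siblings differed more than for any other gene of the 7. WL_HM3 was the line above the MPV, and without its replicate 3 it was below, at -1.28 (adjusted p = 0.208). WRKY18 in WL_HM3 likewise went from 0.07 to -1.21 (adjusted p = 0.0643). WRKY40 in WL_HM2 (-1.90, adjusted p = 0.058) passed under 4 of 7 alternative settings, with adjusted p from 0.0264 to 0.0705. The SA-related pair had no call. WRKY54 was above the MPV in 5 of 7 lines, from -0.39 to 0.88, and WRKY70 was below it in 6 of 7, from -0.91 to 0.05. WRKY54 in WL_HM1 (0.88, adjusted p = 0.0615) passed under 3 of 8 alternative settings, with adjusted p from 0.0182 to 0.0817.

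As background, the share of all 18146 genes called against the MPV was lowest in WL_HM3 (11.9%), followed by WL_HM7 (15.8%), WL_HM5 (17.6%), WL_HM1 (22.4%), WL_HM2 (23.4%) and WL_HM6 (25.7%), and was highest in WL_HM4 (34.4%). Of the 7 WRKY genes, 2 or 3 were called in each line but WL_HM3, that is 28.6% or 42.9%, and 0 in WL_HM3. The number of calls over the 9 Ws/Ler lines was 18 of 63, and it was 11 without replicate 2 of the MPV.

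In the Col/Ler Hybrid Mimics, the few calls pointed upward, at shares near or below those of all genes. WRKY54 was higher than the MPV in CL_HM1 and CL_HM4 and WRKY18 in CL_HM4. The counts of WRKY54 were 657, 726 and 582 in CL_HM1 and 435, 614 and 614 in CL_HM4, against mid-parent values of 234, 361 and 370.2. Neither line overlapped them, and the log2 fold changes were 1.02 ± 0.28, adjusted p = 0.0152 and 0.79 ± 0.28, adjusted p = 0.0439. CL_HM4 overlapped the parent Col, which ran from 296 to 510. WRKY54 was above the MPV in all 4 of these lines, from 0.62 to 1.02. For WRKY18, counts in CL_HM4 were 444, 425 and 708 against 190.0, 245 and 402, again without overlap (0.92 ± 0.32, adjusted p = 0.0369). These counts overlapped those of the parent Ler (167 to 490). The call of WRKY54 was lost in 2 of 6 leave-outs of 1 library in CL_HM1 (highest adjusted p 0.0815) and in 5 of 6 in CL_HM4 (0.2), and that of WRKY18 in CL_HM4 in 3 of 6. Both calls in CL_HM4 were lost without its replicate 3, at 0.65 with an adjusted p of 0.217 for WRKY18 and 0.71 with an adjusted p of 0.137 for WRKY54. The background of all genes called was 25.9% in CL_HM3, 23.9% in CL_HM4, 18.0% in CL_HM2 and 14.6% in CL_HM1. Of the 7, 28.6% were called in CL_HM4 and 14.3% in CL_HM1, near the shares of all genes there. None of the 7 was called in CL_HM2 or CL_HM3. In each, 1 passed an unadjusted p of 0.05, beside 5678 and 6927 of 17919 genes. CL_HM5 and CL_HM6 also had no call, against 18.3% and 31.3% of 17974 genes. The largest change there was WRKY60 in CL_HM5, with counts of 109.7, 173 and 184 (0.95 ± 0.35, adjusted p = 0.0609).

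The small lines of the Col/Ler system were the groups with the most calls against the MPV. All 7 WRKY genes were higher in cl_sml1 and 6 of 7 in cl_sml2. WRKY18 and WRKY60 rose the most. Counts of WRKY18 were 981, 1717 and 1086 in cl_sml1 and 1655, 2254 and 1547 in cl_sml2, against mid-parent values of 190.0, 245 and 402. Each library of both lines lay above each mid-parent value, and WRKY18 was 4.43-fold and 6.37-fold higher. The log2 fold changes of WRKY18 were 2.15 ± 0.32, adjusted p = 8.61e-06 and 2.67 ± 0.32, adjusted p = 5.82e-07. Counts of WRKY60 were 385, 501 and 417 and 316, 473 and 299.9, against 65.5, 78.6 and 97.1, again without overlap. WRKY60 was 5.31-fold higher in cl_sml1 and 4.43-fold higher in cl_sml2. The remaining 5 genes rose by 1.23 to 1.92 in cl_sml1 and, without WRKY53, by 1.08 to 2.09 in cl_sml2. WRKY53 in cl_sml2 had counts of 347, 327 and 286 against 132, 162 and 251, without overlap, although within the range of the parent Ler (176 to 408). It did not pass (0.78 ± 0.35, adjusted p = 0.0679). It passed with scaling by total counts (1.02, adjusted p = 0.0184). Of all genes, 50.9% were called in cl_sml1 and 50.5% in cl_sml2, beside 100% and 85.7% of the 7. The call of WRKY33 in cl_sml2 was lost without its replicate 2 (0.50, adjusted p = 0.252), which with 1871 had more than 2 times the count of its siblings, and without replicate 2 of the MPV (1.04, adjusted p = 0.0506). That of WRKY40 in cl_sml2 was lost in 3 of 6 leave-outs, with adjusted p up to 0.0757.

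In the Ws/Ler small lines, 1 of the 7 genes was called against the MPV in wl_sml1 and 3 in wl_sml2. WRKY60 rose in both, WRKY54 and WRKY70 in wl_sml2, and none was called lower in the main fit. Counts of WRKY60 were 301, 241 and 186 in wl_sml1 and 395, 319 and 438 in wl_sml2, against mid-parent values of 124, 128 and 130.4. All lay above them, with log2 fold changes of 0.96 ± 0.33, adjusted p = 0.0258 and 1.62 ± 0.34, adjusted p = 0.000326. The lowest library of wl_sml1 lay within the range of the parent Ws (153 to 198). In wl_sml1 the call was lost in 5 of 6 leave-outs. Counts of WRKY70 were 3694, 1699.8 and 3875 in wl_sml2 and 1810.3, 1163 and 728 in wl_sml1, against 1093, 1376 and 1798. Replicates 1 and 3 of wl_sml2 lay above the mid-parent values, replicate 2 lay within them, and the values of wl_sml1 spread across them. The log2 fold change of WRKY70 was 1.13 ± 0.34, adjusted p = 0.0088 in wl_sml2 and -0.19 ± 0.34, adjusted p = 0.706 in wl_sml1. WRKY54 was at 0.95 ± 0.34, adjusted p = 0.0259 in wl_sml2. In wl_sml2 the call of WRKY54 was lost in 4 of 6 leave-outs (highest adjusted p 0.159) and that of WRKY70 in 2 of 6 (0.0546). WRKY33 and WRKY53 of wl_sml1 lay below the MPV without a call, at -0.65 and -0.99. Both were called lower in the edgeR fit of only the groups compared (adjusted p = 0.00189 and 0.00147). WRKY53 was also called lower with the MPV on the log2 scale (adjusted p = 0.0461). The background was 34.3% called in wl_sml1 and 41.2% in wl_sml2, against 14.3% and 42.9% of the 7 genes.

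**Figure D2:**
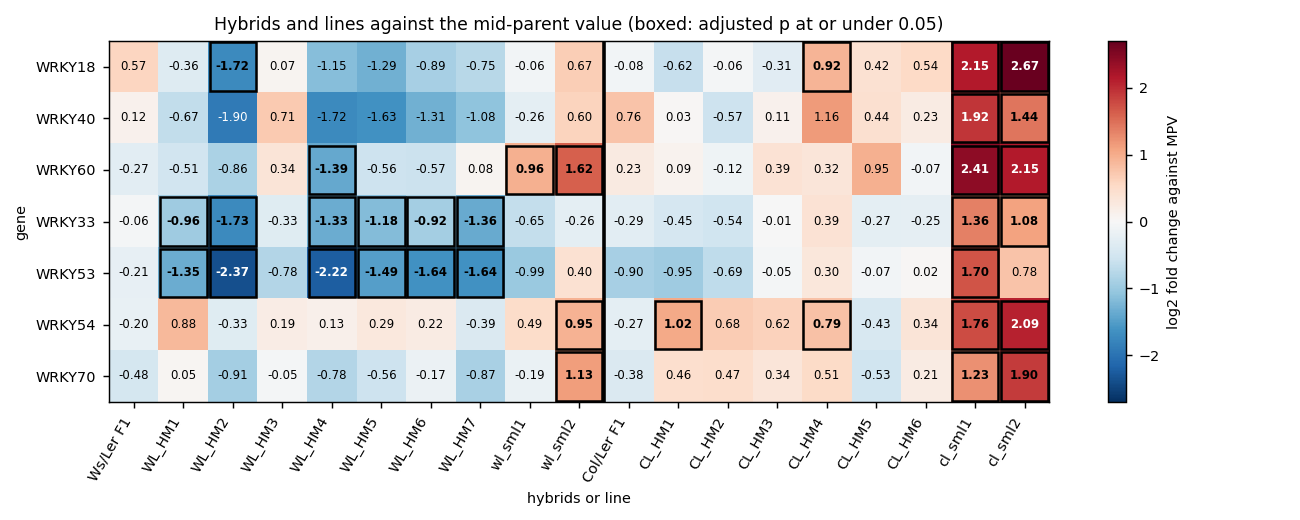
Log2 fold change against the MPV (color and number) of each WRKY gene (rows) in the F1 hybrids and each line (columns), with a box where the edgeR adjusted p was at or under 0.05. Boxes below 0 are found in the Ws/Ler Hybrid Mimics, mostly for WRKY33 and WRKY53, and boxes above 0 in the small lines, CL_HM1 and CL_HM4.

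Small lines and Hybrid Mimics of a system came from the same cross and were selected in opposite directions, and their comparison shares no MPV library. For all 7 WRKY genes the mean of the small lines was higher than that of the Hybrid Mimics in both systems. The difference was 0.57 to 1.79 on the log2 scale in Ws/Ler and 1.12 to 2.43 in Col/Ler. WRKY60 had the largest difference in Ws/Ler (3.45-fold) and WRKY18 in Col/Ler (5.38-fold). The median over the 7 genes was 1.17 and 1.50, against 0.03 and 0.01 over all genes tested. These comparisons called 71.0% of all genes in Ws/Ler and 71.0% in Col/Ler, with 37.2% and 36.0% called higher in the small lines. All 7 of the WRKY genes were called higher in each.

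WRKY60 in Ws/Ler ran from 35.9 to 230.1 with a median of 82.04 over the 21 libraries of Hybrid Mimics, and from 186 to 438 with a median of 310.4 over the 6 of small lines. Of the small-line libraries 5 lay above every Hybrid Mimic library, and WL_HM3 replicate 3 was the highest of the Hybrid Mimics. The log2 fold change of WRKY60 was 1.79 ± 0.18, adjusted p = 5.83e-10. In Col/Ler it ran from 45.6 to 141 with a median of 99.7 in 12 libraries of Hybrid Mimics and from 299.9 to 501 with a median of 401 in the small lines, without overlap (2.11 ± 0.21, adjusted p = 7.23e-09).

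WRKY18 in Ws/Ler ran from 93.7 to 789 with a median of 181 in the Hybrid Mimics and from 275 to 727 with a median of 420.3 in the small lines. The groups overlapped, through 3 libraries of Hybrid Mimics at or above the lowest small-line library (1.17 ± 0.25, adjusted p = 0.000171). In Col/Ler it ran from 106 to 708 with a median of 245 in the Hybrid Mimics and from 981 to 2254 with a median of 1601 in the small lines, where every library was higher than every Hybrid Mimic library (2.43 ± 0.18, adjusted p = 8.11e-11). WRKY40 in Ws/Ler ran from 15.2 to 605 with a median of 60.7 in the Hybrid Mimics and from 95.05 to 394 with a median of 144 in the small lines, and the groups overlapped (1.26 ± 0.37, adjusted p = 0.00343). In Col/Ler the ranges of WRKY40 were from 41.6 to 405 with a median of 118 and from 213 to 577 with a median of 317. They overlapped through CL_HM4 replicate 3 alone (1.50 ± 0.31, adjusted p = 0.000162).

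WRKY33 in Ws/Ler had the Hybrid Mimics from 185 to 1052 with a median of 312 and the small lines from 411 to 706 with a median of 485. With an overlap of 3 Hybrid Mimic libraries, its log2 fold change was 0.66 ± 0.18, adjusted p = 0.00215. In Col/Ler it ran from 290.2 to 1050.2 with a median of 412 and from 702 to 1871 with a median of 1112, overlapping through CL_HM4 replicate 3 (1.37 ± 0.21, adjusted p = 5.22e-06). WRKY53 in Ws/Ler ran from 45.6 to 358 with a median of 91.3 in the Hybrid Mimics and from 124 to 641 with a median of 191 in the small lines. Only 1 small-line library, of wl_sml2, exceeded all Hybrid Mimics (1.34 ± 0.24, adjusted p = 1.45e-05). In Col/Ler it ran from 51.7 to 373 with a median of 145 and from 286 to 753 with a median of 363, with CL_HM4 replicate 3 as the overlap (1.59 ± 0.21, adjusted p = 6.39e-07). AT4G23800, which overlaps WRKY53 on the other strand, moved in the opposite direction, at -1.99 (adjusted p = 2.91e-06) in Ws/Ler and -1.58 (adjusted p = 5.56e-07) in Col/Ler. AT2G38480, which overlaps WRKY33, likewise fell, by 1.39 (adjusted p = 4.5e-11) and 1.10 (adjusted p = 8.98e-09).

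WRKY54 in Ws/Ler ran from 191 to 707 with a median of 386 in the Hybrid Mimics and from 331 to 905 with a median of 571 in the small lines, with 12 Hybrid Mimic libraries at or above the lowest of the small lines (0.57 ± 0.19, adjusted p = 0.00755). The call was lost in leave-outs: without wl_sml1 replicate 1 it was 0.30 (adjusted p = 0.158), and without wl_sml2 replicate 3 it was 0.42 (adjusted p = 0.0699). In Col/Ler the ranges of WRKY54 were from 435 to 726 with a median of 534 and from 871 to 1796 with a median of 1204, without overlap (1.14 ± 0.16, adjusted p = 1.73e-06). WRKY70 in Ws/Ler ran from 556 to 1700.3 with a median of 930.1 and from 728 to 3875 with a median of 1755, with 3 small-line libraries, 2 of them of wl_sml2, above all Hybrid Mimics (0.94 ± 0.18, adjusted p = 4.37e-05). Of the Hybrid Mimic libraries 16 were at or above the lowest of the small lines. The mean of wl_sml1 was 1234 and that of wl_sml2 3089.7, while the highest Hybrid Mimic line, WL_HM1, was at 1480. In Col/Ler WRKY70 ran from 1036 to 1801 with a median of 1450.2 in the Hybrid Mimics and from 1771 to 5147 with a median of 3466 in the small lines, where 5 of 6 libraries were above all Hybrid Mimics (1.12 ± 0.17, adjusted p = 2.75e-06).

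These calls were also made without the libraries that stood apart. Without WL_HM3 replicate 3 all 7 genes were called in Ws/Ler, with log2 fold changes of 1.36 (adjusted p = 6.46e-07) for WRKY18, 1.54 (adjusted p = 3.71e-05) for WRKY40, 0.78 (adjusted p = 1.42e-05) for WRKY33 and 1.50 (adjusted p = 8.68e-08) for WRKY53. Without CL_HM4 replicate 3 all 7 were called in Col/Ler, with 1.67 (adjusted p = 3.3e-05) for WRKY40, 1.49 (adjusted p = 1e-06) for WRKY33 and 1.73 (adjusted p = 4.4e-08) for WRKY53, and the ranges of these 3 genes then did not overlap.

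Whether the difference between small lines and Hybrid Mimics was itself different between the systems was tested in 1 fit of all 72 libraries. The difference was larger in Col/Ler for WRKY18, by 1.29 ± 0.35, adjusted p = 0.00242, and for WRKY33, by 0.74 ± 0.29, adjusted p = 0.0359. Of all 18297 genes 40.3% were called in this comparison, and 28.6% of the 7. The result for WRKY18 held in all 45 leave-outs of 1 library. WRKY33 lost its call in 5 of 45, down to 0.45 with an adjusted p of 0.216 without cl_sml2 replicate 2. The calls were also lost without cl_sml1 replicate 3 (0.60, adjusted p = 0.106), wl_sml2 replicate 2 (0.67, adjusted p = 0.0769), wl_sml1 replicate 2 (0.71, adjusted p = 0.0636) and CL_HM4 replicate 1 (0.68, adjusted p = 0.054). The other 5 genes did not pass, at 0.20 to 0.60. Of these, WRKY54 (0.60, adjusted p = 0.102) passed when CL_HM5 and CL_HM6 were added to the Hybrid Mimics (0.87, adjusted p = 0.0123).

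Hybrid Mimics were also compared with the F1 hybrids whose size they were selected for. In Ws/Ler, WRKY18, WRKY40, WRKY33 and WRKY53 were lower in the Hybrid Mimics, whereas in Col/Ler WRKY54 and WRKY70 were higher. WRKY18 ran from 217 to 1069 with a median of 485 in the 6 Ws/Ler hybrid libraries, and the lines were at -1.44 ± 0.25, adjusted p = 4.09e-05. WRKY33 ran from 389 to 1131 with a median of 640.0 in the hybrids, and the lines were at -1.05 ± 0.18, adjusted p = 3.03e-05. WRKY53 ran from 152 to 369 with a median of 253, and the lines were at -1.43 ± 0.24, adjusted p = 2.48e-05. For all 3 genes the highest Hybrid Mimic library was WL_HM3 replicate 3, and the ranges overlapped. WRKY40 ran from 45.6 to 282 with a median of 160.3 in the hybrids (-1.20 ± 0.37, adjusted p = 0.00951). Without WL_HM3 replicate 3 of the lines the values were -1.62 (adjusted p = 1.64e-07) for WRKY18, -1.17 (adjusted p = 9.75e-08) for WRKY33, -1.58 (adjusted p = 2.08e-07) for WRKY53 and -1.49 (adjusted p = 0.000188) for WRKY40. Without LerxWs F1 replicate 2, the hybrid library with the highest WRKY18, WRKY18 was at -1.10 (adjusted p = 0.000655) and WRKY40 at -0.98 (adjusted p = 0.0442). WRKY60, WRKY54 and WRKY70 did not pass, at -0.22, 0.34 and 0.01. Of all genes 46.5% were called and 26.7% were called lower, against 4 of 7, or 57.1%, for the WRKY genes.

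In Col/Ler, WRKY54 ran from 128 to 406 with a median of 286 in the hybrids, and every library of the 4 Hybrid Mimic lines lay above all of them (1.05 ± 0.18, adjusted p = 0.000221). WRKY70 ran from 423 to 1098 with a median of 838 in the hybrids against from 1036 to 1801 with a median of 1450.2 in the Hybrid Mimics, and the groups overlapped (0.83 ± 0.18, adjusted p = 0.0017). WRKY53 did not pass (0.55 ± 0.24, adjusted p = 0.0925), nor did WRKY18, WRKY40, WRKY60 and WRKY33, at 0.06, -0.58, -0.06 and 0.14. The background was 24.7% called and 10.9% called higher, against 28.6% of the WRKY genes. The comparisons of Hybrid Mimics with hybrids and with small lines share the Hybrid Mimic libraries.

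**Figure D3:**
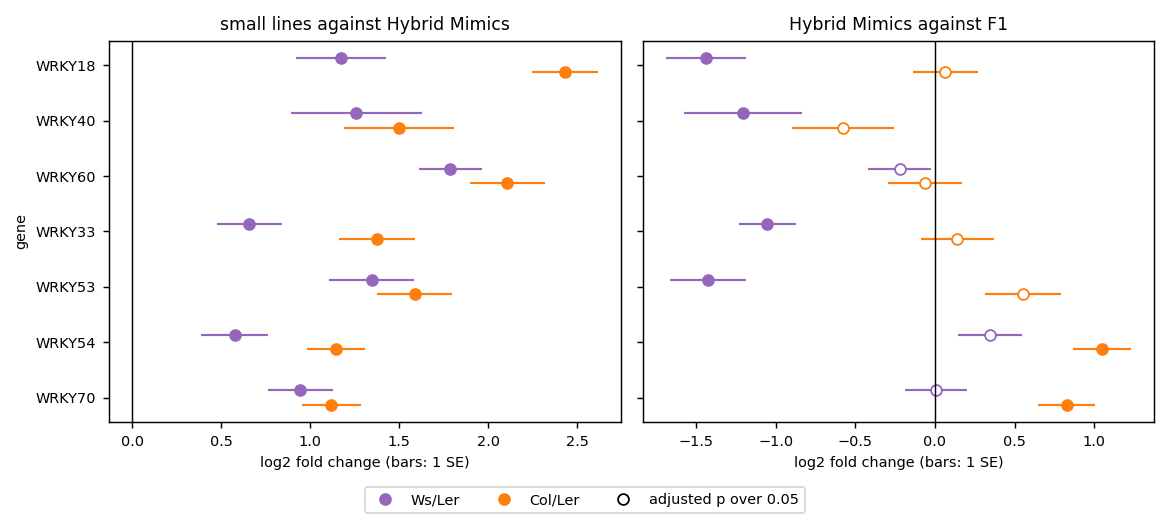
Log2 fold change with its SE (edgeR) of each WRKY gene in the small lines against the Hybrid Mimics and in the Hybrid Mimics against the F1 hybrids, for Ws/Ler and Col/Ler. All 14 values lie above 0 for the small lines, whereas in the other panel WRKY18, WRKY40, WRKY33 and WRKY53 of Ws/Ler lie below 0 and WRKY54 and WRKY70 of Col/Ler above it.

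Replicate libraries varied more in these 7 genes than in most. The SD of log2 normalized counts over the 3 libraries of a group had a median over groups of 0.40 for WRKY18, 0.64 for WRKY40, 0.41 for WRKY60, 0.30 for WRKY33, 0.36 for WRKY53, 0.40 for WRKY54 and 0.36 for WRKY70. The median gene was at 0.16. Of all genes, 95.7% had a lower spread than WRKY40 and 78.6% a lower spread than WRKY33. For WRKY40 the median SD was 0.72 in groups of 3 pooled plants a library and 0.63 in groups of 1 plant a library. WL_HM3 had the largest SD of all groups for WRKY40 (2.09), WRKY18 (1.39), WRKY53 (1.23) and WRKY33 (0.97).

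WL_HM3 replicate 3 had normalized counts of 605 for WRKY40, 789 for WRKY18, 1052 for WRKY33 and 358 for WRKY53, whereas its siblings had 34.1 and 92.6, 126 and 181, 312 and 346, and 73.6 and 91.3. WRKY54 and WRKY70 of this library were at 386 and 1628, compared with 539 and 289 for WRKY54 and 1556 and 896 for WRKY70 in its siblings. The same library had the highest summed level of all 72 for the camalexin list, 649 CPM against 119 and 122 in its siblings, and for the senescence list, 1897 CPM against 271 and 335. Its SA list summed to 3015 CPM against 341 and 687. CL_HM4 replicate 3 was the highest Hybrid Mimic library of Col/Ler for WRKY18, WRKY40, WRKY60, WRKY33, WRKY53 and WRKY70, and its senescence list summed to 867 CPM against 343 and 465 in its siblings. The calls without these libraries are given above.

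Deviations from group means were correlated across the 72 libraries as a description, since libraries share depth and normalization. WRKY54 and WRKY70 deviated together (r = 0.92), whereas WRKY40 and WRKY54 did not (r = -0.08). The 18 rapidly induced stress genes, a list of early responders to touch, wounding and handling such as ZAT12, followed WRKY33 (r = 0.88), WRKY18 (0.80), WRKY40 (0.80) and WRKY53 (0.70). Their deviations were less like those of WRKY60 (0.51), WRKY70 (0.13) and WRKY54 (0.05). The summed level of that list was 90.6 to 533 CPM in the Ws/Ler Hybrid Mimics and 250.5 to 349 CPM in the small lines. In Col/Ler it was 132 to 487 CPM in CL_HM1 to CL_HM4 and 407 to 662 CPM in the small lines. Its part in the differences of WRKY18, WRKY40, WRKY33 and WRKY53 was not tested. Deviations of the SA list did not single out the SA-related pair. Their Pearson r was 0.69 with WRKY53, 0.65 with WRKY40, 0.57 with WRKY33 and 0.52 with WRKY18. It was 0.48 with WRKY70, 0.45 with WRKY60 and 0.31 with WRKY54. By Spearman rho, WRKY70 was highest (0.59) and WRKY18 lowest (0.34).

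Across the means of the 24 groups, WRKY33 and WRKY53 were the most alike pair (Pearson r = 0.92, Spearman rho = 0.87), followed by WRKY54 and WRKY70 (0.89 and 0.87) and by WRKY33 and WRKY40 (0.89 and 0.81). The median over the 21 pairs was 0.71, and the least alike were WRKY53 and WRKY54 (0.42 and 0.33). Values near that median were also reached by many genes outside the 7. By likeness to WRKY60, WRKY18 (r = 0.75) had place 1280 among 18296 genes and WRKY33 (0.71) place 1821. By likeness to WRKY33, WRKY53 had place 7. The groups share parents and are not independent. Among 18296 other genes, the ones most like WRKY70 were SIB1 (r = 0.96), AT1G34750 (0.92) and MAP2A (0.92), and those most like WRKY54 were EP1 (0.90), NQR (0.89) and WRKY70 itself. For WRKY40 they were the zinc-finger gene STZ (0.96), the calmodulin-like gene CML38 (0.93) and WRKY25 (0.92), and for WRKY18 they were WRKY25 (0.93), AT4G33920 (0.93) and CEJ1 (0.93). WRKY15 (0.94), TET8 (0.94) and AT1G05575 (0.94) were closest to WRKY33, and AT1G78410 (0.96), HSF A4A (0.94) and the syntaxin gene SYP122 (0.94) to WRKY53. WRKY60 had SFR6 (0.96), BI1 (0.95) and CALS1 (0.94).

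**Figure D4:**
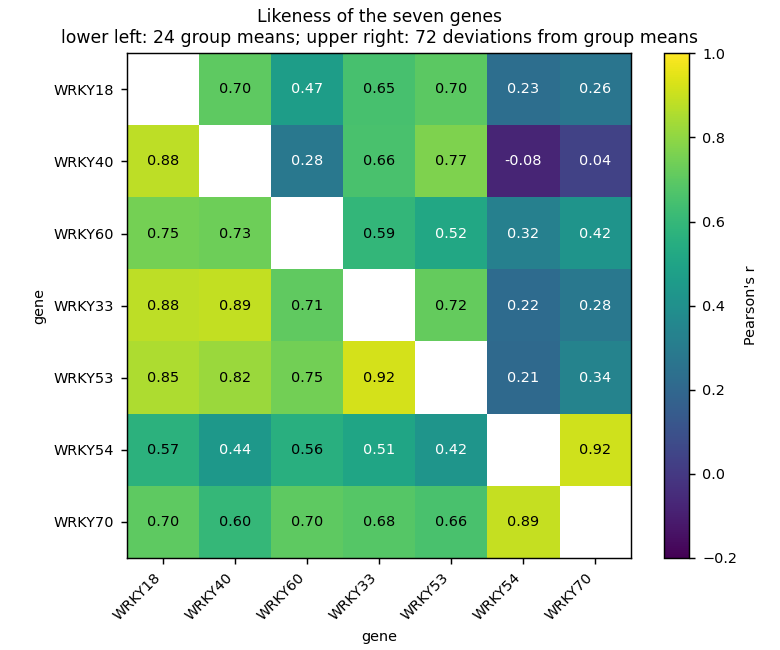
Pearson correlation of each pair of the 7 WRKY genes, over the means of 24 groups and over the deviations of 72 libraries from their group means. WRKY54 and WRKY70 form the most alike pair over deviations (0.92), and WRKY33 and WRKY53 over group means (0.92).

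Genes of the pathways in which these factors act were taken from lists and are described by counts in the comparison of small lines with Hybrid Mimics. Of 60 other genes that the reference annotation names as WRKY genes, 41 passed the count minimum. Among these 35 rose and none fell in Ws/Ler, and 37 rose and 1 fell in Col/Ler, beside 37.2% and 36.0% of all genes called higher. At an unadjusted p of 0.05, 35 of 41 passed in Ws/Ler, beside 13229 of 18146 of all genes. Their median log2 fold changes were 1.06 and 1.30, beside 1.17 and 1.50 for the 7. Between Hybrid Mimics and F1 hybrids, 20 fell and 2 rose in Ws/Ler, and 8 fell and 5 rose in Col/Ler. Of all genes 26.7% were called lower in the Ws/Ler comparison, and 24.7% were called in Col/Ler, 10.9% higher.

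SA synthesis and signalling, to which WRKY54 and WRKY70 belong by function, had 16 genes tested. In Ws/Ler 6 rose, a share near the 37.2% of all genes called higher there, and 1 fell. In Col/Ler 15 rose, beside 36.0% of all genes. The regulators of SA synthesis CBP60G and SARD1 rose by 1.72 and 1.28 in Ws/Ler, while ICS1, the gene of the main synthetic enzyme, fell by 0.37 (adjusted p = 0.00272). In Col/Ler, PR1, a marker of SA responses, was 17.2-fold higher (4.10 ± 0.42, adjusted p = 1.32e-08), and CBP60G rose by 2.05.

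Of 7 tested genes of camalexin synthesis and WRKY33 partners, 4 rose in Ws/Ler and 5 in Col/Ler, and none fell. Of all genes, 37.2% and 36.0% were called higher. CYP71A12, an enzyme of the pathway, rose by 2.98 and 3.77, and the WRKY33 partner SIB1 by 0.92 in Ws/Ler. PAD3, which makes camalexin in the last step, rose by 2.57 in Col/Ler. Leaf senescence had 11 genes tested and 10 rose in each system, beside the same shares of all genes. The senescence regulator ORE1 was 15.6-fold higher in Ws/Ler, and SAG29 rose by 2.66 there. In Col/Ler SAG29 rose by 3.03 and SAG13 by 3.02.

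Among the rapidly induced stress genes 17 were tested. In Ws/Ler 11 rose and 2 fell, and in Col/Ler 15 rose, beside 37.2% and 36.0% of all genes called higher. ZAT12, a stress-induced zinc-finger gene, rose by 1.71 and 3.11, ERF1A by 1.70 in Ws/Ler and CML38 by 2.43 in Col/Ler. The touch-induced genes TCH4 and TCH2 fell by 2.53 and 0.39 in Ws/Ler.

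Markers of leaf cells moved with the same contrast. Of 8 rosette leaf markers none rose, 6 fell in Ws/Ler, and in Col/Ler all 8 fell. As background, the Ws/Ler small lines had 6143 genes called lower, out of 18146 tested. For the Col/Ler small lines the number called lower was 6271, out of 17919. The photosystem gene CAB3 fell by 2.79 and 1.74, RBCS3B, a Rubisco small subunit, fell by 1.41 in Ws/Ler, and CA1, a carbonic anhydrase, fell by 2.48 in Col/Ler. Their summed level was 62391 to 117214 CPM in the Ws/Ler Hybrid Mimics and 34714 to 48848 CPM in the small lines, and 66969 to 99137 and 36079.7 to 41644 CPM in Col/Ler. The ranges did not overlap. The root marker PYK10 fell by 1.12 and 0.86, and the list of 3 summed to 1.37 to 40.01 CPM against 2.42 to 14.7 CPM in Ws/Ler, and 9.62 to 50.2 against 3.80 to 27.03 in Col/Ler. Of the floral markers 5 were tested in Ws/Ler, where SEP3 rose by 2.00 and 1 fell, and 1 in Col/Ler, which rose. The 6 summed to 0.713 to 14.7 CPM in the Ws/Ler Hybrid Mimics and 2.44 to 19.4 CPM in the small lines, and to 1.01 to 3.15 and 1.92 to 3.81 CPM in Col/Ler. The part of these marker changes in the rise of the WRKY genes was not tested.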

How the data were processed

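RNA of rosette leaves was sequenced in 72 libraries. The counts per gene were made by the authors with STAR 2.5.3a on TAIR10 and deposited as 1 table of 37336 Araport11 genes, unnormalized, and 0 of its columns were left out. The strand setting of counting is not given in the sources used here. The genes, the gene lists and the tests were chosen with earlier results of these data known. Groups came from the labels.

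A gene entered a fit where any of its libraries reached 50 counts, and was tested with the quasi-likelihood test of edgeR 4.0.16 (TMM, R 4.3.3, limma 3.58.1), with Benjamini-Hochberg adjustment over all genes tested and calls at an adjusted p of 0.05 or less. Log2 fold changes are given ± SE. Fits held the 9 parent libraries, the 36 or 27 libraries of a system with its MPV (33 for CL_HM5 and CL_HM6), or all 72. DESeq2 1.42.0, other scalings, filters and MPVs, a replicate block and leaving out each library were the alternatives. The scripts were tested on simulated data. Normalized counts are scaled to the mean library size, SDs use log2 with a pseudocount of 1, and correlations log2 CPM with a prior count of 2.

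Besides the 7 genes, the text names the 2 genes of each list with the largest called rise and the 2 with the largest called fall in small lines against Hybrid Mimics (50 or more normalized counts where higher), and the 3 genes most like each of the 7. Genes that overlap one of the 7 were named after their values were seen. Windows and coding bases come from the RefSeq copy of TAIR10.1 with its own annotation, and no coordinates were converted.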

Additional observations from a re-analysis of the deposited data

Results flagged for a closer look

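WRKY18 had a normalized count of 1069 in LerxWs F1 replicate 2, far from the other 5 Ws/Ler hybrid libraries, of which the nearest had 515. The gap was 0.651 of the whole range, past the 95% critical value of the Dixon test for 6 samples. It was the only such case in the 14 sets of 6 hybrid libraries examined, and chance alone flags about 1 in 20.

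The difference between small lines and Hybrid Mimics was larger in Col/Ler than in Ws/Ler for WRKY18, by 1.29 on the log2 scale (edgeR adjusted p = 0.00242), and for WRKY33, by 0.74 (adjusted p = 0.0359). Both come from a test of the difference itself in the fit of all 72 libraries. In Col/Ler every small-line library of WRKY18 was above every Hybrid Mimic library, whereas in Ws/Ler the highest library of the comparison was WL_HM3 replicate 3. Without that library the difference was 1.11 (adjusted p = 0.00223) for WRKY18 and 0.63 (adjusted p = 0.0478) for WRKY33.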

How the results depend on the processing

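No call reversed under any alternative. Apart from leaving out libraries, 1361 of 1406 values of single genes kept their side of the threshold, 43 gained a call, 2 lost one, and 11 without a call changed sign. Requiring 50 counts in every library took WRKY40, WRKY60 and WRKY53 out of the test, and gave 4 calls for small lines against Hybrid Mimics in each system, 2 for Ws/Ler Hybrid Mimics against F1 and 10 over the Ws/Ler lines, of which WRKY70 in WL_HM2 was gained (-0.92, adjusted p = 0.048). Fitting only the groups compared gave 32 calls over the Ws/Ler lines in place of 18 (the cause was not tested). DESeq2 gave 2 calls for Ws against Ler, with WRKY40 added (0.91, adjusted p = 0.04). Over all genes it called 4646 of 17043 there, against 3524 in the main fit.

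Leaving out 1 library in turn gave 11 to 20 calls over the Ws/Ler lines (main 18) and 11 to 17 over the Col/Ler lines (main 16), the lowest without replicate 2 of the MPV in both. The range was 0 to 4 for Ws against Ler, 1 to 3 for the system difference, 6 to 7 for small lines against Hybrid Mimics in Ws/Ler and 2 to 3 for Hybrid Mimics against F1 in Col/Ler, and 1 count in all other comparisons. Of 1953 single values 62 lost a call, 19 gained one, and 109 without a call changed sign. Shares of all genes called in the leave-outs are not given, so these counts cannot be set against a background.

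With the replicate block the calls were 19 over the Ws/Ler lines, where WRKY40 in WL_HM2 was gained (-2.09, adjusted p = 0.0346), and 15 over the Col/Ler lines, where WRKY18 in CL_HM4 was lost (0.90, adjusted p = 0.0512). No other count changed. Deviations of libraries with the same number had a median r of 0.016 (33.2% of pairs over 0.1), against -0.016 (27.8%) for different numbers, so the numbers were not taken to pair the libraries.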
